A study of Mus musculus with 8 samples.

Results

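Trp53, the gene of the transcription factor p53, and 8 genes that p53 activates (Cdkn1a, Mdm2, Ccng1, Zmat3, Phlda3, Eda2r, Trp53inp1 and Aen) were followed across the 4 groups of a mouse thymic epithelial cell line. The 9 genes were taken by name and every array probe listed for them was used, which gave 16 probes of the 56605 on the array and 9 of the 19023 genes tested. All 16 probes were well above background on all 8 arrays. The cells were TEC100.4, an immortalized mouse line that the labels trace to the thymic cortex, carrying a doxycycline-inducible mutant (mt) of the transcription factor TFII-I, the product of Gtf2i, as either the β isoform (TFII-I-βmt) or the δ isoform (TFII-I-δmt). Each line was cultured for 24 h with or without doxycycline, the drug that switches such a transgene on, and 2 samples of each of the 4 groups were hybridised to 1-colour Agilent 60K arrays. The titles name the untreated samples as the mutant line without doxycycline, while their genotype label names the wild type isoform. The groups here follow the titles, by which all 8 samples belong to an inducible line and the untreated ones are its uninduced state. The labels do not settle which name holds.

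No line without a mutant was treated with doxycycline among the samples analysed here, so the drug and the induced protein cannot be told apart. The labels do not say whether a line is 1 clone, so a difference between the lines may belong to the isoform or to the clones, which cannot be told apart either. The β arrays filled columns 1 and 2 of the slide and the δ arrays columns 3 and 4, so position and line cannot be told apart. Nothing says that the 2 samples of a group came from separate cultures, and the p-values therefore speak only to the scatter of these arrays, part of which may be technical. The slide carried the treated samples in its row 1 and the untreated ones in its row 2, so an effect of position and one of treatment cannot be told apart. Whether TEC100.4 carries an intact p53 is not stated in the sources used here, and the arrays measured RNA, not protein.

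p53 is held at a low level by Mdm2, a ubiquitin ligase that marks it for degradation, and is stabilised after DNA damage and other stress, mainly at the level of the protein. Active p53 binds its response elements and raises the transcription of genes that stop the cell cycle (Cdkn1a), return a signal onto p53 itself (Mdm2, Ccng1, Trp53inp1) or promote cell death (Aen, Phlda3, Eda2r). In the thymus, p53 is known mostly for its part in the death of damaged thymocytes, and epithelial cells respond through the same targets.

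The sequence that ties these genes to p53 is the p53 response element, and the promoters in which it was found are shown because they place a match to it near a start site of Cdkn1a and of Ccng1. RefSeq promoter windows (build GRCm38.p6, 250 bases before to 50 bases after a start) were given for 7 of the 9 genes, in 9 windows of 300 bases. The 20-base consensus response element, which reads the same on both strands, was searched with the fixed C and G of each of its core motifs exact and at most 1 mismatch at the other bases, the middle of the core included. It was found in 2 of the 9 windows and in 22 of all 32851 windows (0.067%). No window of the 9 held it without a mismatch, against 3 of all windows. In Cdkn1a the match lay at chr17:29090928-29090947, starting 51 bases before the start of 1 of its 2 windows (chr17:29090729-29091028, plus strand). In Ccng1 it lay at chr11:40755462-40755481, starting 195 bases before the start (window chr11:40755237-40755536, minus strand). Capitals mark the match, and both sequences run 5′ to 3′ on the gene's strand.
Cdkn1a: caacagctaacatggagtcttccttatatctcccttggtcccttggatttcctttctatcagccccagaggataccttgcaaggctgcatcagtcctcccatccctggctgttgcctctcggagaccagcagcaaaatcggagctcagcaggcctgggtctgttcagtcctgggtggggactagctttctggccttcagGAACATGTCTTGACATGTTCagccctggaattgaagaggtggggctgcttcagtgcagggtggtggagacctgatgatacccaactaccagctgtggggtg
Ccng1: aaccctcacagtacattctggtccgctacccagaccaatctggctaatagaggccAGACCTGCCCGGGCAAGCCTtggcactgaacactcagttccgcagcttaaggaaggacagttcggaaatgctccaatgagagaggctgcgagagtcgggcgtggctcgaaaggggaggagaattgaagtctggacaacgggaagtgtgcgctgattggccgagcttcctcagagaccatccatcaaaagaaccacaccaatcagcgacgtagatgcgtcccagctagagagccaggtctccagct
A match is a description of these letters and not a measured binding site, and the absence of a match in the other 7 windows concerns this window and this motif alone. The window with the match is the upstream start of Cdkn1a; the files do not tell which of its 2 probes reads transcripts from that start.

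The arrays themselves differed in ways that touch some of these genes. The number of probes well above background was 43423 to 45156 on the treated arrays and 39575 to 40755 on the untreated ones. On untreated δ replicate 1, 92 of 1008 tiles of 8 by 8 spots deviated by more than 0.3 on the log2 scale from the other arrays, against at most 6 on any other array, and 1 of the 16 probes (Aen A_52_P443705) has its spot in such a tile. Of 9 markers of cortical thymic epithelium, 6 were well above background on all 8 arrays, among them Foxn1, Prss16 and Ccl25, while Psmb11, the thymoproteasome subunit that defines this cell type, was so on none. Foxn1 and Prss16 were dim. Relative to the array's 75th percentile, the log2 group means were -4.83 to -4.31 for Foxn1, -3.78 to -2.55 for Prss16 and 0.64 to 1.17 for Ccl25. Of 6 general epithelial markers, 4 were well above background on all arrays, whereas Epcam was so on 1 array and Cdh1 on 3. Of 5 fibroblast markers, Col1a1, Col3a1, Dcn and Pdgfra were well above background on all 8 arrays and Lum on 3. Of 3 endothelial markers, Pecam1 and Cdh5 were so on all 8 arrays and Tek on 6. Of 7 thymocyte markers, Cd3e, Cd4, Cd8a and Lck were so on all 8 arrays, Ptcra on 5, and Ptprc and Rag1 on none. Of 5 macrophage and dendritic cell markers, Csf1r, Itgam and Cd68 were so on all 8 arrays, and Adgre1 and Itgax on none. On the same scale the group means were 3.88 to 4.48 for Cd4 and 3.21 to 3.52 for Itgam. The source of these signals was not tested. The precision is limited by the 8 arrays, 2 a group. Values below are log2 intensities relative to the 75th percentile of the array, and levels are compared only within a probe.

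Trp53 itself was the least reproducible of the 9 genes, and no difference between groups passed the test. Its probe read 0.48 and 2.15 in the untreated β line and 1.64 and 1.16 with doxycycline. Its δ line values were 2.08 and 2.70 untreated and 1.69 and 1.18 treated. Untreated β replicate 1 was the lowest of the 8 arrays, the 4 treated arrays lay between 1.16 and 1.69, and of the comparisons made only that of the δ line with and without doxycycline had no overlap. The group means were ordered untreated β (1.31), treated β (1.40), treated δ (1.44) and untreated δ (2.39), and no neighbours in that order differed beyond their spread by the test. With doxycycline the log2 difference was -0.96 ± 0.55 (SE, n = 2 against 2) in the δ line, with a limma adjusted p of 0.424, and for the β line it was 0.09 ± 0.55 (adjusted p = 0.964). The β value turned to -0.75 without untreated β replicate 1 and to -0.15 without treated β replicate 1, so its sign rests on those arrays. The untreated δ line was 1.08 ± 0.55 above the untreated β line (limma adjusted p = 0.267), which was 1.92 (adjusted p = 0.044) without untreated β replicate 2 and 0.24 (0.740) without untreated β replicate 1.

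Trp53 varied widely between arrays of the same group. Its residual SD was 0.68 on the log2 scale, at the 95.8th percentile of all 19023 genes, whose median was 0.14, and the 8 target genes had residual SDs of 0.04 to 0.18. The 2 untreated β arrays differed by 1.67, a 3.19-fold gap that 123 genes reached or passed between the same arrays. Trp53 was the only one of the 9 whose group means spanned more than 1. By the root mean square difference of the centred values over the 8 arrays, the genes most like it were Lamtor2 (0.28), Prpf38b (0.30) and Gm5176 (0.30), chosen among 19023 genes. Lamtor2 read 1.85 and 2.95 in the untreated β line and 3.14 and 3.29 in the untreated δ line.

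**Figure D1:**
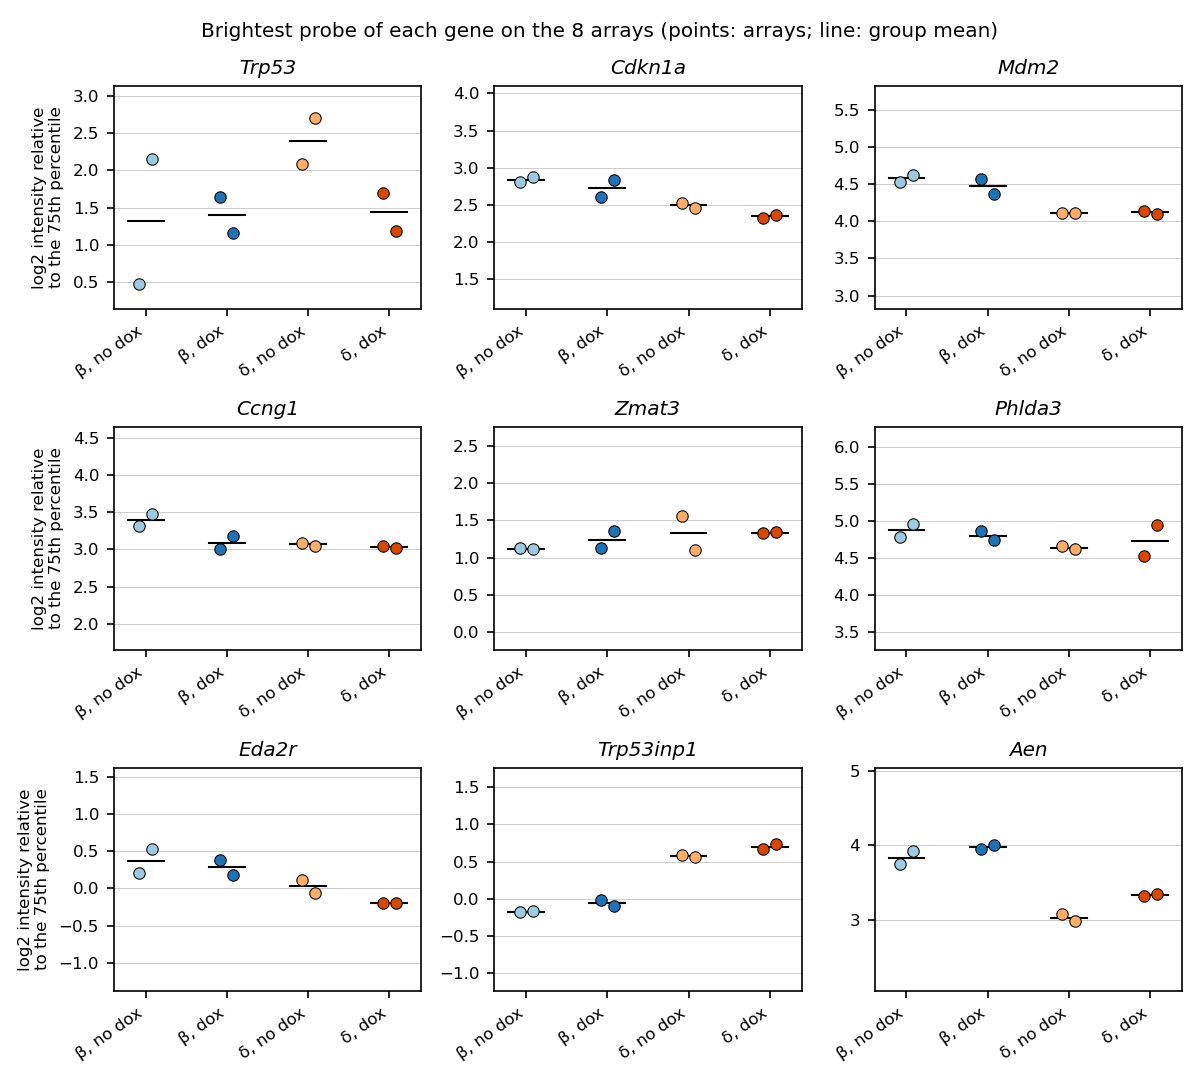
Log2 intensity relative to the array's 75th percentile (vertical axis, the same span in each panel) for the brightest probe of Trp53 and 8 target genes in the 4 groups, with points for the 2 arrays of a group and a line for their mean. Trp53 scatters within groups, while Aen sits lower and Trp53inp1 higher in the δ line with and without doxycycline.

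Doxycycline left the p53 target genes without a called change in either line. None of the 9 genes passed the limma threshold (adjusted p under 0.05 over all 19023 genes) in the β line, where 0.247% of all genes did (47), in the δ line, where 0.0736% did (14), or over both lines, where 3.12% did (593). At an unadjusted p under 0.05 there was 1 of 9 in each of the 3 comparisons, against 3464, 2856 and 4274 of all genes. The largest differences among the 8 targets were a Ccng1 1.23-fold lower in the β line and an Aen 1.24-fold higher in the δ line, neither of them called. By their brightest probes, the 8 targets had 95% intervals within -0.56 and 0.54 in the β line and within -0.57 and 0.55 in the δ line. For these probes a change beyond 1.47-fold and 1.49-fold, respectively, lay outside all of the intervals. Over both lines the intervals of these probes lay within 1.32-fold. Those of dimmer probes reached farther, to 0.70 for Trp53inp1 in the β line and to -0.68 for Cdkn1a and 0.73 for Aen in the δ line. Over both lines the dimmest Eda2r probe reached 0.56. The median log2 difference of the 8 targets was -0.079 in the β line and 0.0027 in the δ line, beside medians of 0.035 and 0.00035 over all genes. The test is one of 2 against 2 arrays with 4 residual degrees of freedom, and a miss of the threshold does not show that the genes did not change.

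Cdkn1a encodes p21, the inhibitor of cyclin-dependent kinases through which p53 stops the cell cycle. Its brighter probe read 2.80 and 2.87 in the untreated β line and 2.61 and 2.84 with doxycycline, where the groups overlapped. It read 2.53 and 2.46 in the untreated and 2.32 and 2.37 in the treated δ line. Both treated δ arrays lay below both untreated ones, a difference of -0.15 ± 0.11 that did not pass (limma adjusted p = 0.513). The dimmer probe moved by 0.16 ± 0.17 in the β line and by -0.28 ± 0.17 in the δ line, neither called by limma over all probes (adjusted p = 0.717 and 0.488). For this gene, whose promoter match is shown above, the doxycycline difference over both lines was -0.13 ± 0.08 (limma adjusted p = 0.363).

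Mdm2 and Ccng1 feed back on p53, Mdm2 as its ubiquitin ligase and Ccng1, cyclin G1, as a partner of the phosphatase that acts on Mdm2. Mdm2 read 4.53 and 4.63 in the untreated β line and 4.56 and 4.37 treated. The δ arrays read 4.12 and 4.11 untreated and 4.13 and 4.10 treated, with overlapping values and a difference of 0.0020 ± 0.10. The brighter probe gave -0.11 ± 0.10 in the β line, whereas on the dimmer one both treated β arrays lay above both untreated ones (0.21 ± 0.12, probe-level limma adjusted p = 0.454). Ccng1 read 3.32 and 3.47 in the untreated β line and 3.01 and 3.18 treated, so both treated arrays were lower. The difference of -0.30 ± 0.10 had the smallest adjusted p of the 9 genes in the β line, 0.203 by limma. Ccng1 read 3.09 and 3.05 in the untreated and 3.04 and 3.02 in the treated δ line, and the interaction term for its doxycycline effect did not pass (0.26 ± 0.15, limma adjusted p = 0.665).

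The remaining targets act in growth control and cell death. Aen, a nuclease that degrades DNA in apoptosis, read 3.74 and 3.93 in the untreated β line and 3.95 and 4.01 treated. The δ arrays read 3.07 and 2.98 untreated and 3.31 and 3.34 treated. Treated arrays were higher in both lines, by 0.14 ± 0.10 and 0.31 ± 0.10, with limma adjusted p of 0.533 and 0.289, and 0.22 ± 0.07 over both lines (adjusted p = 0.146), which no alternative brought past the threshold. The second probe gave 0.06 ± 0.13 in each line, and the third, which lies in a deviating tile on untreated δ replicate 1, gave -0.06 ± 0.14 in the β line and 0.40 ± 0.14 in the δ line.

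Trp53inp1, which promotes phosphorylation of p53 and takes part in autophagy, read -0.18 and -0.17 in the untreated β line and -0.01 and -0.10 treated. Its δ values were 0.58 and 0.56 untreated and 0.66 and 0.73 treated. It had the smallest residual SD of the 9 genes (0.04), and treated arrays were higher in both lines, by 0.12 ± 0.09 and 0.13 ± 0.09 (limma adjusted p = 0.545 and 0.478). The dimmer probe gave 0.21 ± 0.20 in the β line and, in the other direction, -0.16 ± 0.20 in the δ line. Phlda3, which restrains the kinase Akt, read 4.79 and 4.96 in the untreated β line and 4.87 and 4.74 treated. With 4.66 and 4.63 in the untreated and 4.52 and 4.95 in the treated δ line, treated δ replicate 2 alone set the sign of the δ difference, which was 0.09 ± 0.16 with it and -0.12 without it.

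Zmat3, a zinc finger protein that binds RNA, read 1.12 and 1.11 in the untreated β line and 1.12 and 1.36 treated. Both treated δ arrays, at 1.33 and 1.34, lay between the untreated ones, at 1.56 and 1.10. Eda2r, a death receptor of the TNF receptor superfamily, read 0.21 and 0.52 in the untreated β line and 0.39 and 0.18 treated. Its treated δ arrays, at -0.19 and -0.20, lay below the untreated ones, at 0.12 and -0.07. Its 3 probes disagreed. The brightest gave -0.09 ± 0.14 and -0.22 ± 0.14, while the dimmest, A_66_P122860, was higher with doxycycline on all arrays of both lines, by 0.33 ± 0.11 and 0.41 ± 0.11. Over both lines that probe gave 0.37 ± 0.08, the smallest adjusted p of the 16 probes (0.0841 by limma over all probes).

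Counted by whether the arrays of the groups overlapped, 4 of 9 genes were apart in the β line, beside 46.9% of all genes, with 3 above (26.6% of all genes) and 1 below (20.3%). In the δ line 6 of 9 were apart, beside 58% of all genes, with 2 above (30.4%) and 4 below (27.6%). The totals lie near the background. The interaction term, which tests whether the doxycycline effect differs between the lines, passed for 0 of 9 genes in limma, beside 0.00526% of all genes (1), with adjusted p-values of 0.665 to 0.976. No gene of the 9 had an unadjusted p under 0.05 there, against 1433 of all genes.

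**Figure D2:**
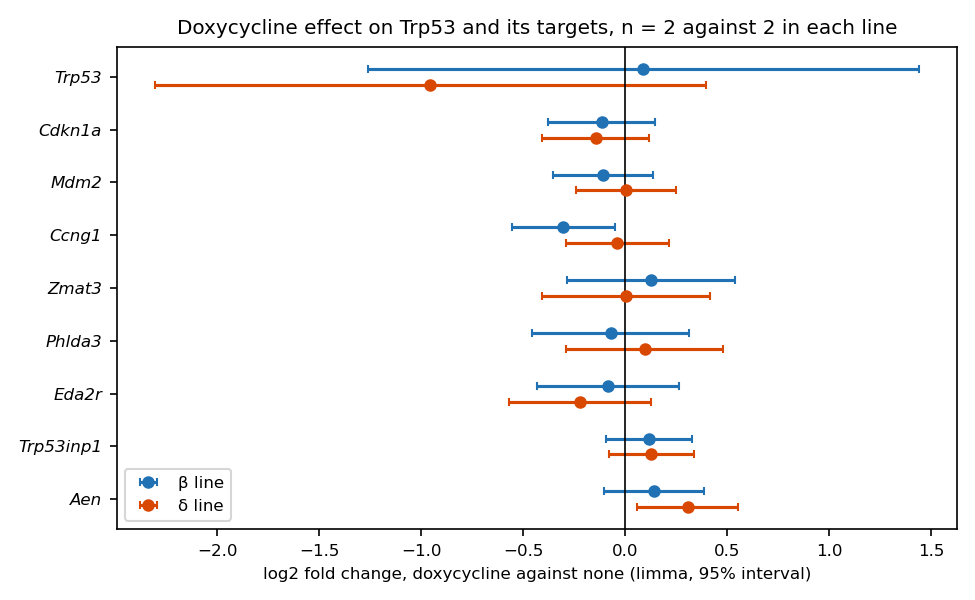
Log2 fold change with doxycycline against none (horizontal axis) for the brightest probe of Trp53 and 8 targets in the β line and the δ line, with points for the limma estimate (2 arrays against 2) and bars for its 95% interval. The targets' intervals lie between -0.57 and 0.55, and those of Trp53 are far wider.

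The second question is how the lines differ. Without doxycycline, Aen and Mdm2 were lower and Trp53inp1 higher in the δ line than in the β line, 3 of 9 genes, beside 13.2% of all genes (2513; 7.93% higher and 5.28% lower). With doxycycline, Aen was lower and Trp53inp1 higher, 2 of 9, beside 15.3% (2903; 9.75% higher and 5.51% lower). The same comparison at single probes called 4 and 3 of 16, none of them a probe of Mdm2, beside 7.19% and 7.31% of all probes. The comparisons without and with doxycycline take their means from different arrays. They are of the same lines and share an estimate of the spread from all 8 arrays, so they are not independent. Of the 4 measured general epithelial markers (6 listed), 3 were also lower in the untreated δ line: Krt14 (5.01 in the β line and 1.27 in the δ line), Krt8 (4.01 and 2.13) and Krt18 (3.20 and 2.45). Krt5 did not pass (-0.32 and -0.40, limma adjusted p = 0.889). Their summed level, to which the bright Krt14 and Krt8 give most, was 50.6 to 62.4 over the β arrays and 12.5 to 13.3 over the δ arrays, and their part in the line differences was not tested.

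Aen was lower in the δ line by each of its 3 probes. Its brightest probe was -0.81 ± 0.10 without doxycycline, a 1.76-fold lower level in the δ line (limma adjusted p = 0.00451), and -0.65 ± 0.10 with it, 1.57-fold lower (adjusted p = 0.0109). All 4 β arrays, from 3.74 to 4.01, lay above all 4 δ arrays, from 2.98 to 3.34. The second probe was -0.81 ± 0.13 in both comparisons (probe-level limma adjusted p = 0.0165 and 0.0179). The third was -0.98 ± 0.14 without doxycycline (0.0114) and -0.52 ± 0.14 with it (0.0800). Without doxycycline the call held in 16 of 17 alternatives. With doxycycline it held in 12 of 17 and was lost with median scaling (-0.57, adjusted p = 0.056) and when any 1 of the 4 treated arrays was left out, with adjusted p of 0.051 to 0.110 and values of -0.68 to -0.62.

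Trp53inp1 was 0.74 ± 0.09 higher in the untreated δ line, 1.67-fold (limma adjusted p = 0.00346), and 0.75 ± 0.09 higher in the treated δ line, 1.69-fold (adjusted p = 0.00362). The β arrays lay between -0.18 and -0.01 and the δ arrays between 0.56 and 0.73, with no overlap. Its dimmer probe, A_55_P1973906, did not show this: it gave 0.34 ± 0.20 without doxycycline and -0.03 ± 0.20 with it (probe-level limma adjusted p = 0.365 and 0.956). The call of the brighter probe held in 17 of 17 alternatives without doxycycline. With doxycycline it held in 15 of 17, and was lost with the mean over its probes (0.36, adjusted p = 0.109) and without treated δ replicate 2 (0.72, adjusted p = 0.052).

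Mdm2 was -0.46 ± 0.10 in the untreated δ line, 1.38-fold lower (limma adjusted p = 0.0336), and -0.35 ± 0.10 in the treated one (adjusted p = 0.0685). The β arrays, from 4.37 to 4.63, lay above the δ arrays, from 4.10 to 4.13, and the dimmer probe was also lower, by 0.30 and 0.54. In the fit over all probes neither the brighter nor the dimmer probe passed without doxycycline (limma adjusted p = 0.0641 and 0.201) or with it (0.120 and 0.0513). The call over genes held in 7 of 17 alternatives. It was lost when any of the 4 untreated arrays or either treated δ array was left out, with values of -0.51 to -0.42 and adjusted p up to 0.101, and with normexp background correction, median scaling, no filter, or only the 4 arrays compared. The difference with doxycycline passed in 2 of 17 alternatives, as the mean over probes (adjusted p = 0.0283) and with an intensity trend (0.0430).

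The other targets were lower in the δ line in most cases and did not pass. Cdkn1a was -0.35 ± 0.11 without and -0.38 ± 0.11 with doxycycline (limma adjusted p = 0.0935 and 0.0680), and all its β arrays lay above all its δ arrays, but its dimmer probe gave 0.25 and -0.18. With doxycycline Cdkn1a passed in 2 of 17 alternatives, after quantile normalization (adjusted p = 0.0281) and with an intensity trend (0.0415). Without doxycycline it passed in 0 of 17, with values of -0.38 to -0.047. Eda2r was -0.34 ± 0.14 and -0.48 ± 0.14 (adjusted p = 0.185 and 0.0748), with all 3 probes lower in both comparisons. It passed in 2 of 17 alternatives with doxycycline, as the mean over probes (0.0407) and with only the 4 arrays compared (0.0386), and in 0 of 17 without it. Ccng1 was -0.33 ± 0.10 without and -0.06 ± 0.10 with doxycycline (adjusted p = 0.0979 and 0.741). It passed in 1 of 17 alternatives without doxycycline, after quantile normalization (0.0391), and in 0 of 17 with it. Zmat3 and Phlda3 differed by 0.21 ± 0.17 and -0.23 ± 0.16 without doxycycline and by less with it. Of the 16 probes, which include several of the same gene for 5 of the 9 genes, 9 had both δ arrays below both β arrays in both comparisons and 1 had them above, beside 14.6% and 16% of all 44321 probes. By genes, the arrays did not overlap for 7 of 9 without doxycycline, beside 53% of all genes, with 6 below (23.9% of all genes) and 1 above (29%). With doxycycline it was 5 of 9, beside 68.5%, with 4 below (33.1%) and 1 above (35.4%). The median of the 8 targets was -0.33 without and -0.21 with doxycycline, beside 0.023 and -0.0083 over all genes.

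**Figure D3:**
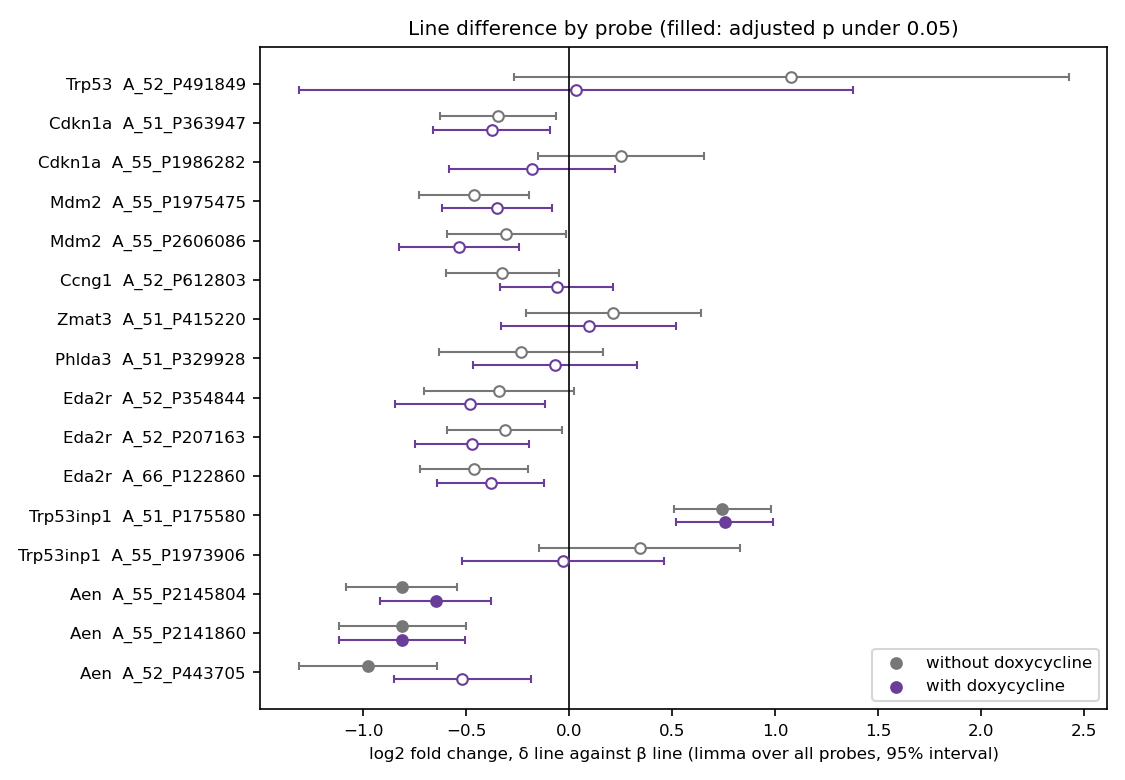
Log2 fold change of δ arrays over β arrays (horizontal axis) for each of the 16 probes, without and with doxycycline, with bars for the 95% interval of the limma fit over all probes and filled points for an adjusted p under 0.05. All 3 Aen probes lie below 0, and the Trp53inp1 probes disagree.

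The wider p53 pathway was read from 8 lists of 95 genes, of which 92 were measured. The lists were chosen with earlier results of these data known. The shares called in them, here and between the lines, therefore describe the lists and are no test of the pathway. The 44 measured further p53 targets held 0 called genes with doxycycline in the β line (beside 0.247% of all genes) and 1 in the δ line (beside 0.0736%). Over both lines 2 were called higher and 2 lower (9.09%, beside 3.12% of all genes). The gene called in the δ line was Bcl2l14, a BCL2 family member, which read -2.58 and -2.69 untreated and -4.41 and -4.09 treated (-1.61 ± 0.15, limma adjusted p = 0.0408). It read -3.23 and -3.41 against -4.00 and -4.20 in the β line, and over both lines it fell by 1.20 ± 0.10 (adjusted p = 0.0107). In the limma fit over all probes the δ difference did not pass (adjusted p = 0.0817), while that over both lines did (0.0181). With normexp background correction the δ value shrank to -0.91 (adjusted p = 0.0723) and that over both lines to -0.63. The call in the δ line was also lost when any β array or either treated δ array was left out, with adjusted p up to 0.225, and that over both lines without either treated β array or treated δ replicate 1 (0.050 to 0.063).

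Pmaip1, which encodes the BH3-only death protein Noxa, was higher with doxycycline over both lines by 0.59 ± 0.10 (limma adjusted p = 0.0394). The death receptor gene Fas rose by 0.49 ± 0.09 (adjusted p = 0.0483), although its other probe gave 0.18 ± 0.28. Ak1, an adenylate kinase, fell by 0.49 ± 0.08 (adjusted p = 0.0409). Each of these 3 calls held in 1 of 8 fits with an array left out, the one without untreated δ replicate 2. Leaving out any other array gave 0.53 to 0.65 for Pmaip1 (adjusted p up to 0.189), 0.42 to 0.56 for Fas (0.205) and -0.54 to -0.43 for Ak1 (0.198). Normexp and median scaling also ended all 3 calls (0.064 to 0.098), quantile normalization that of Pmaip1 (0.058) and the mean over probes that of Fas (0.33, adjusted p = 0.222). The limma fit over all probes called none of the 3 over both lines (adjusted p = 0.0657 for Pmaip1, 0.0773 for the brighter Fas probe and 0.0707 for Ak1). Among targets named after their values were seen, 5 did not pass over both lines: Bax, whose 2 untreated β arrays read 1.87 and 3.11, gave 0.16 ± 0.28, Bbc3 (Puma) -0.07 ± 0.07, Btg2 0.16 ± 0.08, Sesn2 0.03 ± 0.10 and Gdf15 -0.30 ± 0.08 (adjusted p = 0.117 for Gdf15, the smallest of these 5).

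Between the lines the further targets, from the same lists, moved in both directions. Without doxycycline 4 of 44 were higher and 4 lower in the δ line (18.2%, beside 13.2% of all genes), and with it 3 higher and 7 lower (22.7%, beside 15.3%). Pmaip1 stood out in size. It read -2.74 and -2.50 in the untreated and -2.09 and -1.84 in the treated β line, against -0.26 and -0.26 in the untreated and 0.17 and 0.35 in the treated δ line. That is 2.36 ± 0.14, 5.15-fold, without doxycycline (limma adjusted p = 0.000248) and 2.23 ± 0.14, 4.69-fold, with it (adjusted p = 0.000341), and both calls held in all 17 alternatives.

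The other called targets were smaller. Plk3 and Plk2, polo-like kinases of the stress response, were lower by 0.73 ± 0.09 and 0.61 ± 0.10 without doxycycline (limma adjusted p = 0.00523 and 0.0124) and by 0.75 ± 0.09 and 0.56 ± 0.10 with it (0.00519 and 0.0168). The calls without doxycycline held whichever array was left out and were lost with only the 4 arrays compared (adjusted p = 0.050 for Plk3 and 0.096 for Plk2). With doxycycline, Plk3 was lost without treated δ replicate 1 or 2 (-0.76 to -0.74, adjusted p up to 0.0636) and Plk2 without any of the 4 treated arrays (-0.58 to -0.54, up to 0.147). Psrc1, a spindle protein gene, was higher by 0.56 ± 0.11 and 0.71 ± 0.11, and the death agonist Bid and the drug transporter Abcb1a were lower in both comparisons, Bid by 0.48 and 0.45 and Abcb1a by 0.63 and 0.67. Sesn1 (0.49) and Bcl2l14 (0.69) were called higher without doxycycline, and Ak1 (0.50) higher and Perp (-0.61), Gtse1 (-0.56) and Ccnd2 (-0.97) lower with it. These calls were less stable. Those with doxycycline were lost without any of the 4 treated arrays, with adjusted p up to 0.226 for Ak1, except that Ccnd2 held without treated β replicate 2 and Bid was lost without any of the 8 arrays (up to 0.284). Without doxycycline Bid was again lost in 8 of 8 such fits, Sesn1 in 7, Psrc1 and Abcb1a in 6 and Bcl2l14 in 5, with adjusted p up to 0.121. Normexp took Abcb1a without doxycycline to -0.30 (adjusted p = 0.238) and ended the calls of Abcb1a, Bid and Gtse1 with it (0.058 to 0.127). Median scaling ended those of Bid and Sesn1 without doxycycline and of Bid, Perp, Gtse1 and Ak1 with it (0.051 to 0.154), and only the 4 arrays compared ended the 5 calls without doxycycline (0.077 to 0.146) and that of Bid with it (0.058). Quantile normalization ended the Psrc1 call without doxycycline (0.055), and using no filter ended both Bid calls and the Ak1 call (0.055 to 0.064). In the limma fit over all probes Bid passed in neither comparison. Sesn1, Bcl2l14 and Abcb1a did not pass there without doxycycline, nor Perp, Gtse1 and Ak1 with it (adjusted p = 0.0520 to 0.0797, Bid included). Whether a gene called in 1 of the comparisons differed between them was tested only as the interaction term, which called no pathway gene.

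**Figure D4:**
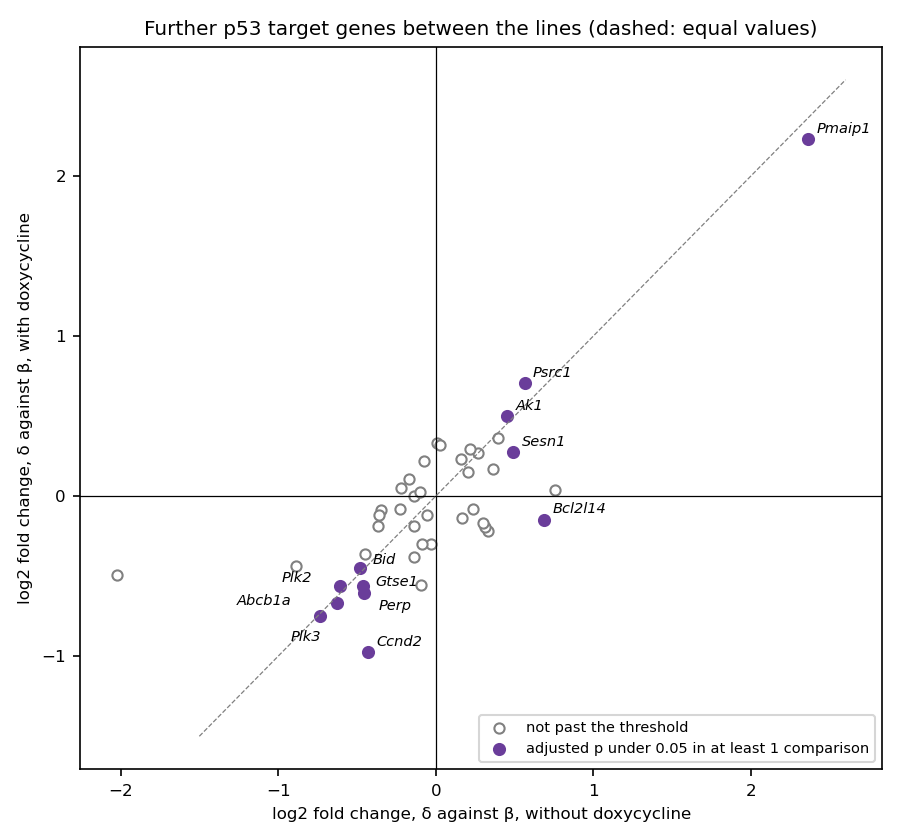
Log2 fold change of δ arrays over β arrays in untreated cells (horizontal axis) and in treated cells (vertical axis) for the 44 further p53 targets, with filled, named points for those with an adjusted p under 0.05 in at least 1 comparison and a dashed line of equal values. Pmaip1 lies at 2.36 and 2.23, far from the rest; the open point farthest left is Ephx1, whose -2.02 ± 0.90 rests on untreated δ replicate 1.

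Genes that act upstream of p53 or downstream of p21 were read from the remaining lists. The list of upstream kinases and regulators (19 of 21 measured, among them Atm, Atr, Chek1, Chek2 and Mdm4) had 0 called genes in each of the 6 comparisons. Of all genes, 13.2% were called between the untreated and 15.3% between the treated lines. In the doxycycline comparisons, the interaction term included, the share was at most 3.12%. The smallest limma adjusted p in this list was 0.061, for the deacetylase gene Sirt1 between the treated lines (0.35 ± 0.10). With doxycycline over both lines it was 0.0654 for Trp53bp2 (0.32 ± 0.07). Mdm4, the partner of Mdm2, gave -0.06 ± 0.08 with doxycycline over both lines. The p53 relatives Trp63 and Trp73 were not called either: Trp63 gave 0.46 ± 0.15 with doxycycline in the β line (adjusted p = 0.190) and -0.13 ± 0.15 in the δ line. Cdkn2a, whose product p19Arf blocks Mdm2, and its neighbour Cdkn2b each had 2 probes, and none was well above background on any array. The other CDK inhibitors (5 of 7 measured) had 0 called genes, beside the same shares of all genes. The nearest was Cdkn1b, which encodes p27, at 0.50 ± 0.14 in the untreated δ line (limma adjusted p = 0.0657).

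Of 13 genes (beside 13.2% and 15.3% of all genes called without and with doxycycline) for the kinases and cyclins that p21 binds, PCNA and the retinoblastoma family, 1 was called without doxycycline, Rbl1, which encodes p107 (-0.46 ± 0.09, limma adjusted p = 0.0278), and 2 with it, Rbl2, which encodes p130 (0.61 ± 0.12, adjusted p = 0.0222), and Ccnd2. Rbl1 was lost without either untreated β array, untreated δ replicate 1 or either of the treated δ arrays (-0.50 to -0.41, adjusted p up to 0.101), and Rbl2 without any treated array (0.54 to 0.68, up to 0.158). Normexp took Rbl2 to 0.31 (adjusted p = 0.270), and normexp, median scaling, the mean over probes or only the 4 arrays compared ended the Rbl1 call (0.053 to 0.134). The 2 other Rbl1 probes gave -0.30 and -0.32 without doxycycline and -0.84 and -0.52 with it, where the brightest gave -0.17. None of the Rbl1 probes passed in the limma fit over all probes in either comparison. Of 10 cell cycle genes repressed through p21 and the DREAM complex, all 10 were lower in the untreated δ line with a median of -0.21, beside 0.023 over all genes, and 1 of the 10 was called, beside 13.2% of all genes. With doxycycline 7 were lower and the median was -0.088, while 49.0% of all genes were above 0. Again 1 was called, the same gene, beside 15.3% of all genes. The called gene was Cdk1, the kinase that drives mitosis, which read 2.50 and 2.50 in the untreated and 2.00 and 2.13 in the treated β line, against 1.81 and 1.76 in the untreated and 1.60 and 1.58 in the treated δ line. It was -0.71 ± 0.09 without doxycycline (limma adjusted p = 0.00443) and -0.48 ± 0.09 with it (adjusted p = 0.0189), and with doxycycline the call needed treated β replicate 2 and each of the treated δ arrays (without 1 of them, -0.49 to -0.42 and adjusted p up to 0.150), and was lost with normexp (0.096) and median scaling (0.106). The call without doxycycline was lost with only the 4 arrays compared (0.051). Aurka, also among the 10, read -6.84 on untreated δ replicate 1 and 4.73 on the other array of its group, against 4.99 and 5.14 in the untreated β line. In the β line Cdk1 gave -0.43 ± 0.09 with doxycycline, which did not pass (adjusted p = 0.0910).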

How the data were processed

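RNA of 8 samples (200 ng each, per the labels' protocols) was labelled with Cy3 and hybridised to Agilent arrays. Per the file headers, Feature Extraction 11.5.1.1 made the deposited intensity values, which the authors did not normalize between arrays: background is subtracted and a multiplicative trend removed, whose fit was 0 on 3 of the 4 treated arrays and 0.067 to 0.126 on the others. Apart from treated β replicate 1 (0.081), this step thus went with treatment. Its part in the doxycycline differences was not tested. The deposited flags for background, saturation and outliers come from the same software. How the study itself tested its arrays is not stated in the labels.

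Unflagged spots of a probe were averaged on the log2 scale, and values were set relative to the array's 75th percentile. Of 56605 probes, 98 lacked a value on some array. Probes were named by transcript accession from a RefSeq table of GRCm38.p6 (32994 with 1 gene, 23611 without). The headers name another build, so no probe coordinates are given. A probe entered the tests if some group had it well above background on each of its arrays (44321, 27215 of them named), and the brightest probe stood for a gene. No probe was saturated. limma 3.58.1 (R 4.3.3) estimated the 4 group means from all arrays together, with Benjamini-Hochberg adjusted p-values, taken over the 19023 genes or, for probe-level values, over the kept probes, and a threshold of 0.05. The fit was tested on simulated data. Replicate numbers follow accession order, and the main fit does not pair samples by them.

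The 9 genes, the pathway lists and the rule for named genes were chosen with earlier results of these data known. Named were all 9 genes, each pathway gene past the threshold and up to 3 others of smallest p per list and comparison; Bax, Bbc3, Btg2, Sesn2, Gdf15, Mdm4, Ephx1 and Aurka were chosen after their values were seen. The alternatives were normexp, quantile normalization, median scaling, 2 other filters, the mean over probes, only the arrays compared, the slide column as replicate block, an intensity trend, the fit without deviating tiles, and each array left out. Normexp was planned on the mean spot signal, which is not a column of the tables used here, and was run on the median spot signal with an offset of 50.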

Additional observations from a re-analysis of the deposited data

Results flagged for a closer look

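No probe of the 9 genes met a rule for a closer look, and 4 of the 92 measured pathway genes did, because both arrays of the treated group moved one way in the β line and the other way in the δ line. For all genes that share was 6.03% (1148). The kinase gene Atr was -0.06 in the β line and 0.31 in the δ line, a difference of 0.37 ± 0.12. The sestrin gene Sesn1 was 0.09 and -0.13, a difference of -0.21 ± 0.14. The ribonucleotide reductase gene Rrm2b was 0.30 and -0.20, a difference of -0.50 ± 0.23. The cyclin-dependent kinase gene Cdk4 was 0.18 and -0.17, a difference of -0.34 ± 0.17. The limma interaction term passed for none of the 4 (adjusted p = 0.649 to 0.688).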

How the results depend on the processing

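No doxycycline effect on the 9 genes passed in any alternative, in 0 of 162 values in each line and 0 of 153 over both lines and for the difference between the lines. Values near 0 changed sign in places. With the mean over probes, the β values of Cdkn1a, Mdm2 and Eda2r became 0.020, 0.050 and 0.079, the δ values of Mdm2, Eda2r and Trp53inp1 -0.0087, 0.0070 and -0.015, those over both lines of Mdm2 and Eda2r 0.021 and 0.043, and the differences of Mdm2 and Trp53inp1 -0.059 and -0.18. With quantile normalization, the δ values of Mdm2 and Zmat3 became -0.049 and -0.0080, Phlda3 over both lines -0.016 and Trp53 between the treated lines -0.027. Normexp turned Phlda3 over both lines to -0.039 and the difference of Trp53inp1 to -0.074. Median scaling turned Phlda3 over both lines to -0.00050, the difference of Cdkn1a to 0.031, and Ccng1 and Phlda3 between the treated lines to 0.021 and 0.014. The cause was not tested.

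With 1 array left out at a time, the β values ran from -0.75 to 0.93 for Trp53, -0.16 to 0.014 for Phlda3 and -0.24 to 0.070 for Eda2r. The δ values ran from -0.015 to 0.019 for Mdm2, -0.23 to 0.24 for Zmat3 and -0.12 to 0.31 for Phlda3. Over both lines they ran from -0.053 to 0.18 for Zmat3 and -0.095 to 0.12 for Phlda3. The differences ran from -0.14 to 0.086 for Cdkn1a, -0.35 to 0.11 for Zmat3, -0.047 to 0.38 for Phlda3, -0.29 to 0.018 for Eda2r and -0.032 to 0.055 for Trp53inp1. Between the untreated lines Zmat3 ran from -0.018 to 0.45. Between the treated lines the ranges were -0.22 to 0.29 for Trp53, -0.15 to 0.022 for Ccng1, -0.023 to 0.21 for Zmat3 and -0.28 to 0.14 for Phlda3.

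The counts over all genes moved more. In the β line 47 genes became 13 with normexp, 14 with median scaling, 2 with no filter, 334 with all arrays above background, 240 with an intensity trend and 288 without deviating tiles, and 0 to 203 with an array left out. In the δ line 14 became 5, 7, 803, 44, 25 and 62 in the same order, 31 with the mean over probes, 1 with only the arrays compared, and 1 to 1692 with an array left out. Over both lines 593 became 210, 182, 2209, 950, 921 and 966, and 9 to 2336 with an array left out. For the difference, 1 became 0 with normexp, all arrays above background or a trend, 2 without tiles, and 4 to 1122 with an array left out. Between the untreated lines 2513 became 870 with only the arrays compared and 1389 to 3821 with an array left out, and between the treated lines 2903 became 4137 with only the arrays compared and 674 to 3227 with an array left out. The share of higher calls in the β line was 46.8%, and 23.1%, 28.3% and 28.6% with normexp, quantile and median scaling; in the δ line it was 28.6%, and 0%, 11.1% and 28.6%.

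Arrays of the same slide column deviated together only weakly (r = 0.0185 in the β line and 0.0759 in the δ line). With 2 arrays a group there is only 1 such value per line, so it cannot decide whether the columns pair the samples. With the replicate block, the β count was 0, the δ count 1, that over both lines 1 and that for the difference 0. The block ended the calls of Bcl2l14 in the δ line (adjusted p = 0.336) and of Bcl2l14, Pmaip1, Fas and Ak1 over both lines (0.121, 0.127, 0.154 and 0.146). Between the lines, the calls of the 9 genes held as given beside them, and 54 of 169 and 57 of 203 alternative values of the called pathway genes did not pass without and with doxycycline.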
